A study of Mus musculus with 10 samples.

Results

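The ErbB receptors Egfr, Erbb2 and Erbb3 and the proteins through which they or the polyomavirus middle T antigen signal (Src, Yes1, Shc1, Grb2, Pik3r1, Pik3ca and Akt1) were followed across mammary tumours of MMTV-PyMT mice. The 10 genes were taken by name, and their probe sets were those that the platform annotation pairs with these symbols alone. They came to 14 probe sets for 9 of the 10 genes, of 12422 probe sets and 8251 named genes on the array. No probe set carried the symbol Erbb2 alone in the annotation used here, and that gene was not analysed here. Of the 14 probe sets, 13 passed a filter on low intensity (above a floor on 2 or more strain arrays) and entered the tests, and they covered all 9 genes.

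Middle T antigen has no catalytic activity. It sits in the membrane, binds and activates kinases of the Src family such as Src and Yes1, and is phosphorylated by them on tyrosines that dock Shc1 and the regulatory subunit of phosphoinositide 3-kinase, Pik3r1. Shc1 recruits Grb2, which leads to RAS and the ERK kinases, and Pik3r1 brings the catalytic subunit Pik3ca, whose lipid product recruits Akt1. Receptors of the ErbB family use the same adaptors, with Erbb3 as a strong docking site for phosphoinositide 3-kinase. All of this is signalling between proteins, and the arrays measured transcript only.

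By their labels, the 10 samples were mammary tumour RNAs of female mice at an age of 90 days, measured on Affymetrix mg_u74av2 arrays. Titles name a strain on 9 arrays: ILn, LP, MOLF and NZB with arrays A and B each, and FVBn with array B alone. The strain field reads FVB/Nj on every array, so the groups rest on the titles, and the titles call these RNAs mixes without saying of what. In the MMTV-PyMT transgene a mouse mammary tumour virus promoter drives middle T in the mammary epithelium, and the labels name no tumour-free control. The array whose title names no strain, and no tumour either, is described in the closing section and enters no comparison. Values are quantile normalized log2 intensities with a floor at 4.75, and because probe sets differ in brightness a level of one gene is not set against that of another. With 1 or 2 arrays a strain, which nothing in the labels ties to separate animals, p-values measure the spread between arrays only. In whole tumour RNA, fewer cells of a type and less transcript per cell cannot be told apart.

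MOLF A and NZB B stood apart. They correlated at 0.927 with each other over the tested probe sets, against 0.868 for MOLF A with MOLF B and 0.852 for NZB B with NZB A, while no pair among the other 7 arrays lay below 0.931. For actin, signal at the 3' end over that at the 5' end, which rises as RNA degrades, came to 0.22 to 0.28 in log2 units in ILn and FVBn, against 0.60 to 1.12 in the remaining strains. Titles also carry dates: ILn A and NZB B share one, LP A and MOLF A another, and the other 5 strain arrays the last. All 11 epithelial markers on the array (Krt8, Krt18, Epcam, Cdh1 and others) were above the floor on every array, with a median log2 level of 9.07 to 9.65 on the 9 strain arrays.

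No member differed between strains past the test. In limma's moderated F test over ILn, LP, MOLF and NZB, 0 of 13 member probe sets passed at an adjusted p under 0.05 (1 at an unadjusted p under 0.05), where 0.748% of all 9899 tested probe sets were called and 7.90% had an unadjusted p under 0.05. The smallest adjusted p among members was 0.460, for a dim probe set of Shc1. In the 13 probe sets the median range over the 9 strain arrays was 1.44 log2 units and the median SD within strains was 0.35, against 1.09 and 0.34 in all tested probe sets.

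Nor did any pass when strains were compared one at a time with the mean of the remaining 3. For ILn, 0 of 13 passed in limma (3 unadjusted, against 7.11% of all probe sets), with 0.404% of all probe sets called. For LP, 0 of 13 passed (1 unadjusted, against 5.69%), with 0.313% called. For MOLF, 0 of 13 passed (0 unadjusted, against 6.42%), with 0.414% called, and for NZB 0 of 13 passed (3 unadjusted, against 8.40%), with 0.101% called. For the mean of the 4 strains against FVBn, 0 of 13 passed (1 unadjusted, against 3.41%), with 0.313% called.

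**Figure D1:**
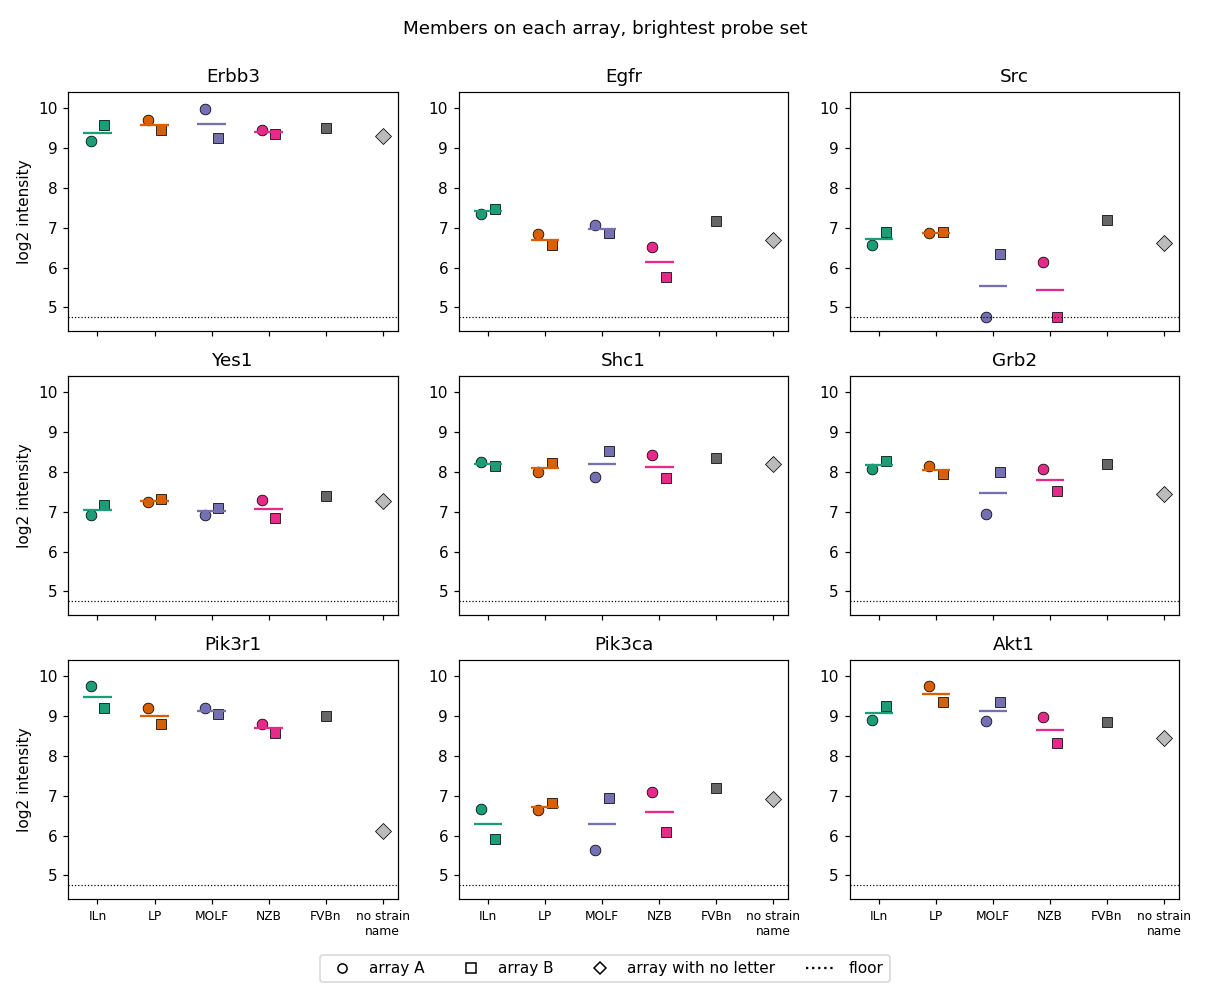
Log2 intensity (vertical axis) of the brightest probe set of each of the 9 measured genes on each of the 10 arrays, by strain name (horizontal axis). Circles are arrays A, squares arrays B, the diamond is the array with no strain name, bars are the means of 2 arrays and the dotted line is the floor; Src lay at the floor on MOLF A and NZB B, and Pik3r1 was at 6.12 on the array with no strain name, below its 9 strain arrays.

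The receptors come first. Egfr, the receptor for epidermal growth factor and its relatives, has 3 probe sets. The brightest, 101842_g_at, measured 7.35 and 7.46 in ILn, 6.83 and 6.57 in LP, 7.07 and 6.86 in MOLF, 6.52 and 5.77 in NZB, and 7.17 in FVBn. Both ILn arrays lay above all 6 arrays of LP, MOLF and NZB, and both NZB arrays lay below all 6 of ILn, LP and MOLF, MOLF lay just above LP, and FVBn fell between ILn and MOLF. ILn was 0.80 above the mean of LP, MOLF and NZB (SE 0.300, 95% confidence interval 0.10 to 1.51, adjusted p = 0.611), and NZB was 0.88 below the mean of ILn, LP and MOLF (difference −0.88, interval −1.58 to −0.17, adjusted p = 0.513). Neither passed.

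A second probe set of Egfr, 101840_at, also placed both ILn arrays highest. It read 6.55 on each ILn array, 6.07 and the floor in LP, 5.53 and 6.37 in MOLF, 5.47 and 5.44 in NZB, and 6.20 in FVBn. The ILn difference there was 0.94 (interval −0.04 to 1.92, adjusted p = 0.732). The dimmest, 101841_at, stayed between 5.14 and 5.66 on 7 arrays and at the floor on MOLF A and NZB B, with an ILn difference of 0.35 (adjusted p = 0.812). Within the title dates that contain both strains, ILn A was 1.58 above NZB B and ILn B 0.94 above NZB A on 101842_g_at. These are single arrays with no test. As the ILn and NZB arrays did not overlap, both gaps had to be positive. Without MOLF A and NZB B the NZB difference shrank to −0.49, while the ILn difference stayed between 0.69 and 1.03 under all 18 alternatives.

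Erbb3, a receptor with little kinase activity of its own that signals as a partner of Erbb2 or Egfr, had small differences between strain means. Its probe set 96771_at measured 9.16 and 9.57 in ILn, 9.70 and 9.44 in LP, 9.96 and 9.23 in MOLF, 9.43 and 9.33 in NZB, and 9.48 in FVBn. The strains overlapped except LP and NZB, and the 5 differences ran from −0.15 in ILn to 0.16 in MOLF, with adjusted p of 0.830 or more. The interval for the 4 strains against FVBn was −0.67 to 0.65, so a difference of up to about that size in either direction is within the error. The other Erbb3 probe set, 101776_at, lay at the floor on all 10 arrays and was not tested.

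**Figure D2:**
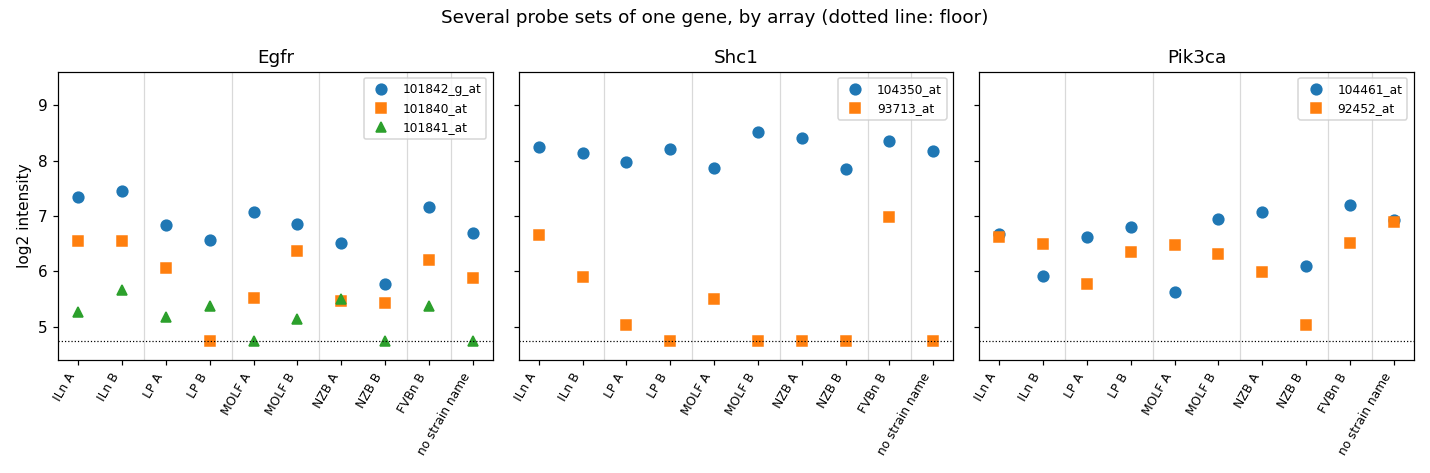
Log2 intensity (vertical axis) of every probe set of Egfr, Shc1 and Pik3ca on each of the 10 arrays (horizontal axis), with 1 marker shape per probe set and the floor as a dotted line. In these normalized values Shc1 93713_at is highest on the ILn and FVBn arrays and at the floor on 4 strain arrays. Shc1 104350_at stays between 7.84 and 8.51.

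Of the kinases that middle T binds, Src gave the widest range of strain means among the brightest probe sets, 1.43. Its probe set 99388_at measured 6.57 and 6.88 in ILn, 6.86 and 6.89 in LP, the floor and 6.33 in MOLF, 6.14 and the floor in NZB, and 7.18 in FVBn. The 2 arrays at the floor were MOLF A and NZB B, where the deposited intensities were 15.9 and 15.4, against 63.8 for MOLF B and 58.1 for NZB A. The remaining 7 arrays lay between 6.14 and 7.18. LP was 0.97 above the mean of ILn, MOLF and NZB (interval −0.26 to 2.20, adjusted p = 0.903), MOLF differed by −0.81 (adjusted p = 0.897) and NZB by −0.93 (adjusted p = 0.655). These sizes followed the 2 arrays: leaving out MOLF A alone brought the MOLF difference to −0.02, and leaving out NZB B alone brought the NZB difference to −0.25. The LP difference was 0.50 without both. A value at the floor is a bound, so the differences with those arrays are understated.

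Yes1, the other kinase of the Src family, had means within 0.27 of each other in the 4 strains with 2 arrays, and FVBn lay above them. It measured 6.91 and 7.17 in ILn, 7.23 and 7.32 in LP, 6.92 and 7.10 in MOLF, 7.30 and 6.84 in NZB, and 7.39 in FVBn. Both LP arrays lay above those of ILn and MOLF, and the NZB arrays overlapped all 3. The differences of the 4 strains ran from −0.12 to 0.24 (adjusted p 0.903 or more).

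The 3 genes whose brightest probe sets had the widest range of means over the 4 strains were compared with all others by their pattern. The probe sets most alike to Src over the 9 strain arrays were those of Mrpl4, a protein of the mitochondrial ribosome (Pearson r = 0.985), Ramp2, a partner of calcitonin receptor-like receptors (0.982), and Qsox1, a sulfhydryl oxidase (0.977). Ramp2 and the Qsox1 probe set were also at the floor on MOLF A and NZB B, and Mrpl4 had its lowest 2 values there (8.74 and 8.70, against 8.90 to 9.11 on the others). For Egfr they were the kinase Dyrk1a (0.969), the synuclein Sncg (0.957) and the G protein subunit Gnaq (0.951), and for Akt1 Rap1gap (0.951), Bckdha, a subunit of branched-chain keto acid dehydrogenase (0.948), and Ppa1, a pyrophosphatase (0.948). These correlations describe 9 points that share arrays, and they were the highest found among all tested genes.

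Shc1, the adaptor that carries a phosphotyrosine signal to Grb2, was read differently by its 2 probe sets. The brighter, 104350_at, measured 8.24 and 8.14 in ILn, 7.98 and 8.21 in LP, 7.86 and 8.51 in MOLF, 8.41 and 7.84 in NZB, and 8.35 in FVBn. The 4 strains with 2 arrays overlapped and their means spanned 0.10, and FVBn lay above both ILn and both LP arrays. The dimmer, 93713_at, measured 6.66 and 5.90 in ILn, 5.03 and the floor in LP, 5.51 and the floor in MOLF, the floor on both NZB arrays, and 6.98 in FVBn.

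In the normalized values both ILn arrays and the FVBn array thus lay above all 6 arrays of LP, MOLF and NZB on 93713_at. The LP and MOLF arrays overlapped. As deposited, MOLF A read 54.5, above ILn B at 48.6, though both arrays had a trimmed mean of 150.1. ILn was at least 2.55-fold above the average of the LP, MOLF and NZB means, which hold values at the floor (difference 1.35 on the log2 scale, SE 0.318, interval 0.61 to 2.10, adjusted p = 0.275). The mean of the 4 strains was below FVBn by at least 3.29-fold (difference −1.72, interval −2.69 to −0.75, adjusted p = 0.456, FVBn 1 array). These were the largest differences of any member, and neither passed. Values held at the floor show no spread (SD 0.00 in NZB), so the SE and intervals may be too narrow. The ILn difference ranged from 0.96 to 1.79 over the alternatives that tested the probe set (a stricter filter dropped it), with adjusted p of 0.205 to 0.989. Within the title dates, ILn A was at least 1.90 above NZB B and ILn B at least 1.14 above NZB A, since both NZB arrays were at the floor. Over the 9 arrays the 2 Shc1 probe sets correlated at only 0.12.

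ILn and FVBn were also the arrays apart in other respects, and the part of these in the Shc1 and Egfr values was not tested. Their actin ratios were the lowest of the 9, as given above. Over 7 salivary gland markers on the array, of 10 listed, the mean log2 deviation from the average of the 9 strain arrays reached 3.04 and 2.93 in ILn and 3.69 in FVBn. Elsewhere it was between −2.60 and 0.03, and the amylase Amy1 was at the floor on both LP and both NZB arrays. The fibroblast marker mean over 10 genes was 0.43 and 0.52 in ILn and 0.28 in FVBn, against −0.31 to −0.07 on the other 6. The erythroid marker mean over 3 genes was 1.24 on both ILn arrays and 0.51 in FVBn, against −0.92 to −0.06 on the other 6, and 2 of the 3 were called higher in ILn. The myoepithelial marker mean over 5 genes was lowest on these arrays, at −0.32 and −0.30 in ILn and −0.29 in FVBn, against −0.11 to 0.42 on the other 6. The epithelial marker mean over 11 genes did not set ILn and FVBn apart, at 0.14 on both ILn arrays and −0.06 on FVBn, against −0.28 to 0.26 on the others.

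RefSeq annotates 2 start windows for Shc1, and the sources used here do not say which transcripts each probe set reads. They are shown because the 2 probe sets of this gene differed, as the 250 bases upstream of each start in the C57BL/6J reference (GRCm38.p6, plus strand, 5′ to 3′), with every CG dinucleotide in capitals. The first lies at chr3:89418301-89418550 and the second, 3070 bases further on, at chr3:89421371-89421620.
Shc1 first window: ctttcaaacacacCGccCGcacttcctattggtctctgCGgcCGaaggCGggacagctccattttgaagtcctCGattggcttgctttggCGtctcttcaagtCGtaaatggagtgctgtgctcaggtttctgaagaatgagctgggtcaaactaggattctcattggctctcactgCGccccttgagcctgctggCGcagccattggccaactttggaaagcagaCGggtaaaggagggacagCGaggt
Shc1 second window: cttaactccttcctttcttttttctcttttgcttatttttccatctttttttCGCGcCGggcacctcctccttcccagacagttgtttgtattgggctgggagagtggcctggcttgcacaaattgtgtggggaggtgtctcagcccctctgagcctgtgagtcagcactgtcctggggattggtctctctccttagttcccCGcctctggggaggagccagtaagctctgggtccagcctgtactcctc
The first holds 12 CG dinucleotides and the second 4, where the median of 32851 such windows is 6, and 33.5% of windows hold at least 12 and 62.2% at least 4. Neither count bears on which window was in use in these tumours.

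Grb2, the adaptor between phosphotyrosines and the RAS activator Sos1, measured 8.07 and 8.26 in ILn, 8.14 and 7.93 in LP, 6.94 and 7.98 in MOLF, 8.06 and 7.52 in NZB, and 8.20 in FVBn. MOLF A and NZB B were again the lowest arrays, and the other 7 lay between 7.93 and 8.26. The MOLF difference was −0.53 (interval −1.24 to 0.18, adjusted p = 0.885), and it was −0.01 without MOLF A. Src and Grb2 correlated at 0.89 over the 9 arrays and at 0.48 over the 7 without MOLF A and NZB B, as a description.

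Pik3r1, the regulatory subunit that docks phosphoinositide 3-kinase onto phosphotyrosines, measured 9.75 and 9.18 in ILn, 9.20 and 8.80 in LP, 9.19 and 9.05 in MOLF, 8.80 and 8.57 in NZB, and 8.99 in FVBn. The order of means was ILn, MOLF, LP, FVBn and NZB. ILn overlapped MOLF and LP, and MOLF overlapped LP. NZB A was level with LP B at 8.80, while both NZB arrays lay below FVBn. ILn differed by 0.53 (interval 0.07 to 0.99, adjusted p = 0.607) and NZB by −0.51 (interval −0.97 to −0.05, adjusted p = 0.555). The ILn difference rested in large part on ILn A: it was 0.25 without that array and 0.80 without ILn B. The NZB difference stayed between −0.65 and −0.39 under the 18 alternatives. Pik3r1 and Egfr, both highest in ILn and lowest in NZB, correlated at 0.80 over the 9 arrays and at 0.71 over the 7.

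Pik3ca, the catalytic subunit, was read by 2 probe sets that ordered the strains differently. The brighter, 104461_at, measured 6.67 and 5.92 in ILn, 6.63 and 6.81 in LP, 5.63 and 6.94 in MOLF, 7.08 and 6.10 in NZB, and 7.20 in FVBn, and all strains with 2 arrays overlapped. The other, 92452_at, measured 6.62 and 6.50 in ILn, 5.77 and 6.35 in LP, 6.48 and 6.31 in MOLF, 5.99 and 5.03 in NZB, and 6.52 in FVBn. In limma, the NZB difference was 0.16 on the first (adjusted p = 0.913) and −0.83 on the second (interval −1.68 to 0.02, adjusted p = 0.604). The ILn difference was −0.24 on the first (adjusted p = 0.861) and 0.57 on the second (interval −0.28 to 1.42, adjusted p = 0.812). The LP and MOLF differences also had opposite signs on the 2 probe sets. The 2 probe sets correlated at 0.12 over the 9 arrays.

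Akt1, the kinase downstream of phosphoinositide 3-kinase, had its highest strain mean in LP. It measured 8.89 and 9.23 in ILn, 9.75 and 9.34 in LP, 8.86 and 9.35 in MOLF, 8.97 and 8.31 in NZB, and 8.84 in FVBn. LP A was the highest array and LP B level with MOLF B, and NZB B was the lowest. LP was 0.61 above the mean of ILn, MOLF and NZB (interval 0.05 to 1.17, adjusted p = 0.810) and NZB differed by −0.60 from the mean of ILn, LP and MOLF (interval −1.16 to −0.03, adjusted p = 0.575). Within the dates, LP A was 0.89 above MOLF A, but LP B and MOLF B differed by −0.01. The NZB difference was −0.27 without NZB B. The skeletal muscle marker mean over 11 genes, whose part in the Akt1 values was not tested, was 1.56 and 1.51 on the LP arrays, 1.20 and 1.13 on the NZB arrays and −2.03 to −0.29 on the ILn, MOLF and FVBn arrays.

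**Figure D3:**
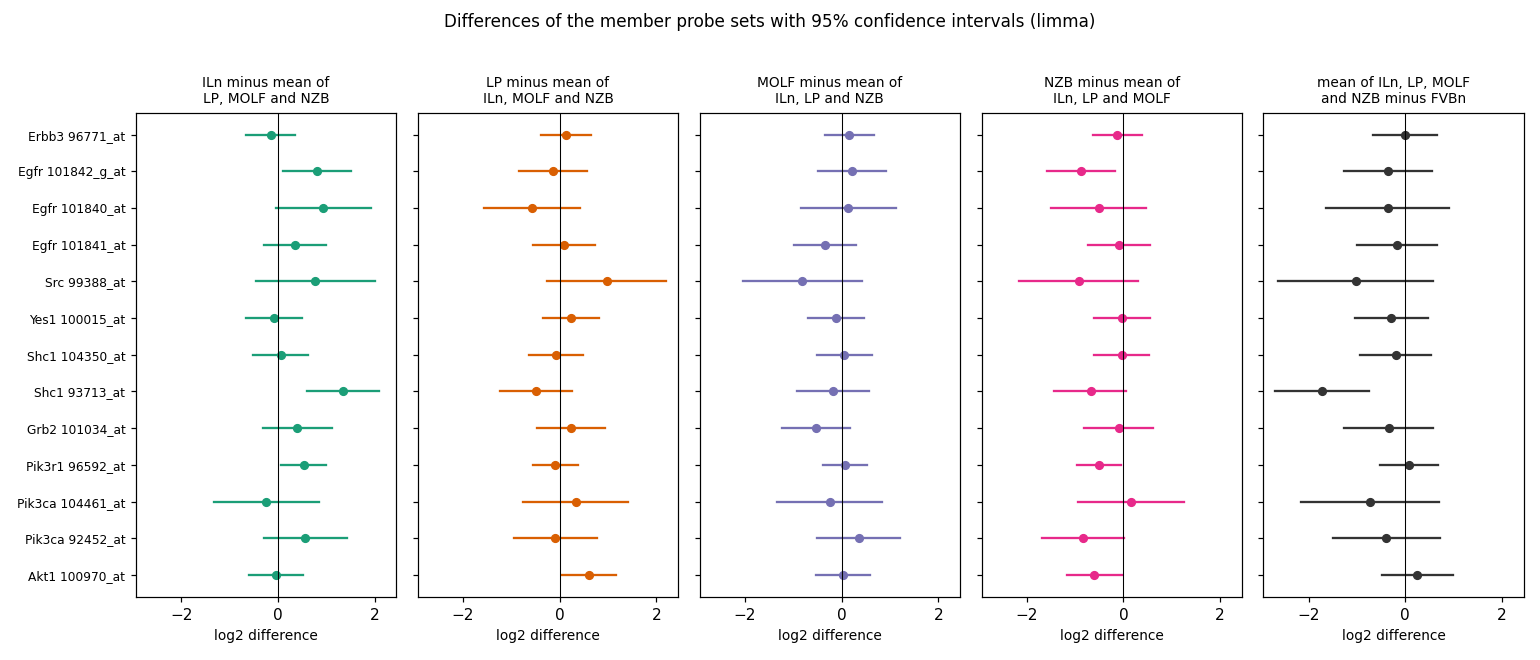
Log2 differences (horizontal axis) of the 13 tested member probe sets (vertical axis) in the 5 comparisons, as points with 95% confidence intervals from limma, not adjusted for the number of tests. The widest departures from 0 are Shc1 93713_at at 1.35 for ILn and at −1.72 for the 4 strains against FVBn.

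Counted across members, NZB values lay mostly below the mean of ILn, LP and MOLF, and 1 array carried much of this. With each gene counted once, on its brightest probe set, 1 of 9 genes was above 0 in NZB, with a median difference of −0.13, against −0.00 over all tested probe sets. Over the 13 probe sets, 1 was above 0 and the median was −0.51, and without NZB B 5 of 13 were above and the median was −0.25. In ILn 5 of 9 genes were above the mean of LP, MOLF and NZB, with a median of 0.06, against −0.02 over all tested probe sets. Over the 13 probe sets 9 were above, with a median of 0.40, so the ILn value depended on counting the further probe sets of Egfr, Shc1 and Pik3ca. Without MOLF A and NZB B, 8 of 13 were above and the median was 0.16. By gene the median was 0.23 in LP and 0.03 in MOLF. For the mean of ILn, LP, MOLF and NZB against FVBn, 2 of 13 probe sets, those of Akt1 and Pik3r1, were above FVBn, with a median of −0.34 (2 of 9 and −0.29 by gene), and the single FVBn array has no replicate. Probe sets of 1 gene are not independent.

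Of 88 other genes of the pathway that had been listed, 65 had a probe set of their own and 56 were tested, on their brightest probe set. They comprised ligands, other proteins that middle T binds, adaptors and kinase subunits, the RAS and ERK cascade, the AKT arm, inhibitors and transcriptional targets. In limma 0 of the 56 passed in any of the 6 comparisons, with 3 at an unadjusted p under 0.05 in the F test, 3 for ILn, 2 for LP, 6 for MOLF, 4 for NZB and 0 against FVBn. Over all tested probe sets the shares at that p were 7.90% in the F test, 7.11% for ILn, 5.69% for LP, 6.42% for MOLF, 8.40% for NZB and 3.41% against FVBn. The median differences were −0.03 in ILn, −0.02 in LP, 0.01 in MOLF, 0.04 in NZB and −0.02 for the 4 strains against FVBn. Of the 6 ligands and receptors on the array, 3 to 4 were at the floor on each of the 10 arrays.

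Ccnd1, the cyclin that drives entry into the cell cycle downstream of RAS and AKT, had the smallest p in MOLF. Its brighter probe set measured 9.90 and 9.42 in MOLF, above 8.93 and 8.96 in ILn, 9.20 and 9.01 in LP and 9.11 and 8.90 in NZB, with 8.98 in FVBn. The MOLF difference was 0.64 (interval 0.25 to 1.02, adjusted p = 0.367). Its other probe set overlapped between strains, at 7.91 and 8.40 in MOLF against 6.84 to 7.93 on the ILn, LP and NZB arrays.

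Dusp1, a phosphatase that switches off MAP kinases, was at 8.76 and 8.49 in MOLF, against 7.84 to 8.19 on the ILn, LP and NZB arrays (difference 0.60, adjusted p = 0.468). Fyn, another Src family kinase that middle T binds, was at 5.08 and 5.41 in LP, below all 6 arrays of ILn, MOLF and NZB (5.91 to 7.11), with a difference of −1.07 (interval −1.88 to −0.27, adjusted p = 0.606). In NZB Fyn differed by 0.95 (adjusted p = 0.541). Its highest values were on the arrays that stood apart, 7.11 on NZB B and 6.57 on MOLF A, against 6.41 on NZB A. Sos1, which activates RAS, was also lowest in LP, at 4.92 and 5.22 against 5.38 to 6.35 (difference −0.80, adjusted p = 0.770).

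Egr1 and Junb, immediate early genes that ERK signalling induces, had the smallest p in ILn. Egr1 was at 7.67 and 7.74 in ILn, against 7.78 to 8.62 in LP, MOLF and NZB (difference −0.53, adjusted p = 0.589), and in NZB it differed by 0.55 (adjusted p = 0.520). Junb was at 7.64 and 7.22 in ILn, against 7.91 to 8.62 (difference −0.70, adjusted p = 0.487). Its other probe set placed ILn A highest of the 9 arrays, at 7.97. Fos, a further immediate early gene of the list, went the other way. Its brighter probe set was at 9.28 and 9.05 in ILn, against 7.87 to 8.88 in LP, MOLF and NZB, while its dimmer one overlapped. Of the 7 transcriptional targets tested, 3 were above 0 in ILn. The RAF kinase Araf and the ligand Egf had the smallest p against FVBn. Araf was at 7.38 to 8.62 in the 4 strains, against 8.65 in FVBn (difference −0.56, adjusted p = 0.999), and Egf at the floor on MOLF A and NZB B and at 6.17 to 6.51 on the other 6 arrays of the 4 strains, against 7.01 in FVBn (difference −1.11, adjusted p = 0.999).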

How the data were processed

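Total RNA of 10 mouse mammary tumour samples was measured on Affymetrix mg_u74av2 arrays, per the labels. The authors deposited 1 intensity per probe set and array on a linear scale. The sources used here do not say how probes were summarised or scaled, but the trimmed mean was 150.1 on each array except ILn A (500.2). Precision is limited by the number of arrays.

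Of 12488 probe sets, 66 controls were left out. Log2 values of the 9 strain arrays were quantile normalized (limma 3.58.1, R 4.3.3), the array with no strain name was mapped to the same distribution, and values under the 30th percentile (intensity 27.0) were raised to it. Symbols came from the platform annotation (1 symbol for 10855 probe sets, several for 396, none for 1237), updated through Entrez identifiers, of which 10839 matched RefSeq of GRCm38.p6. The 9899 probe sets above the floor on at least 2 of the 9 arrays were fitted in limma with 1 mean per strain name and an intensity trend (4 residual degrees of freedom). The 6 comparisons were adjusted by Benjamini-Hochberg over all tested probe sets. FVBn has 1 array, whose spread was taken to equal that of the strains with 2. The fit was also run on simulated data with independent noise, no floor and no shift of whole arrays. That run does not bear on values at the floor or on MOLF A and NZB B.

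Members, other pathway genes and markers were chosen with earlier results of these data known. All member probe sets are named. Of the other pathway genes, those past a test were to be named, or else the 2 with the smallest p per comparison. Fos was named in addition, beside Egr1 and Junb. For the 3 members with the widest range of strain means on their brightest probe set, the 3 most correlated genes are named. Alternatives were median centring, trimmed mean scaling, a 20th percentile floor, no filter, a filter at 7 arrays, no trend, the title date or array letter as a block, and arrays left out.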

Additional observations from a re-analysis of the deposited data

How the results depend on the processing

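In none of the 18 alternatives did a member probe set pass in any comparison that could be fitted; the comparison with FVBn could not be fitted without its only array. Of 65 member differences, 35 kept their sign throughout and 30 changed sign at least once, none of these larger than 0.57 in the fit reported. Counts of calls over all probe sets moved more. With the title date as a block the F test called 18 (74 as reported), ILn 13 (40), LP 0 (31), MOLF 6 (41), NZB 0 (10) and the comparison with FVBn 10 (31). Without MOLF A and NZB B they were 19 in the F test, 25 for ILn, 5 for LP, 0 for MOLF and 0 for NZB. Median centring gave 36 in the F test, 9 for LP, 23 for MOLF and 4 for NZB, and leaving out the intensity trend gave 48 in the F test and 4 for NZB. With no filter NZB had 21 and the comparison with FVBn 102, and with the filter at 7 arrays ILn had 23 and the comparison with FVBn 16. With 1 array left out the counts were 14 to 81 in the F test, 5 to 43 for ILn, 0 to 33 for LP, 4 to 43 for MOLF, 0 to 35 for NZB and 16 to 32 against FVBn. The array letter was not taken to pair strains. Same-letter deviations correlated at −0.02 to 0.13 between strains, apart from −0.71 between MOLF and NZB. That value involves MOLF A and NZB B, which are alike and carry opposite letters, so it cannot decide on pairing. With the letter as a replicate block 0 members passed, and calls over all probe sets were 31 in the F test, 28 for ILn, 9 for LP, 26 for MOLF, 7 for NZB and 20 against FVBn. The 1 or 2 arrays per strain limit what can be seen, as in the interval of −2.63 to 0.57 for Src against FVBn.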

Other observations

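The array whose title names no strain differed most in Pik3r1. That probe set read 6.12, against 8.57 to 9.75 on the 9 strain arrays, and its deposited intensity was 61.4, against 327 to 525 on the 8 strain arrays that share its scale. Pik3ca 92452_at read 6.90, above the 5.03 to 6.62 of the strain arrays. With the floor applied, the other 12 member probe sets lay within the range of the strain arrays: Egfr 101842_g_at at 6.70, Src at 6.61, Yes1 at 7.27, Grb2 at 7.44, Akt1 at 8.44, Erbb3 96771_at at 9.29 and Shc1 104350_at at 8.18. Egfr 101841_at, Shc1 93713_at and Erbb3 101776_at were at the floor here and on some or all strain arrays, so a lower level could not show. The deposited intensity of Egfr 101841_at was 5.37, against 13.1 to 41.1 on the 8 strain arrays that share its scale. This array also carried other markers at other levels. Relative to the 9 strain arrays, the adipocyte marker mean was 3.54 over 5 tested genes, skeletal muscle 3.21, erythroid 2.83, lymphocyte 1.95, endothelial 1.67 and myoepithelial 1.54, while epithelial markers stood at −1.12 and salivary gland markers at −2.50. Fibroblast markers were also above the strain arrays. Its correlation with the strain arrays was 0.763 to 0.869. No group is given for it, so these are values of 1 array, and the part of the markers in the Pik3r1 value was not tested.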
